A study of Mus musculus with 20 samples.

Results

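The 9 genes described here encode components and 1 regulator of the complement system: C7, C6, C3, C2, C4b, Cfb, C1s1, C1ra and Serping1. They are 9 of the 55401 genes of the deposited count table and were found by gene identifier; all 9 passed the filter on low counts, which left 15986 genes. The set was put together around C7, whose level was already known to be lower under the restricted diet, and the question put to the other 8 was whether they share that fall. The diet values of the members are therefore a description, given without p-values. A member said to be called passed the threshold of the fit over all tested genes. Such calls, also in refits of the same libraries, are part of that description and no independent support for the fall of C7. PolyA RNA was sequenced from eWAT, the white adipose tissue of the mouse epididymal fat pad, in 10 libraries from random food restriction (intermittent fasting combined with 5% calorie restriction) and 10 libraries from the control diet. The labels also mark each library Yes or No for contamination with spermatocytes (sperm-forming cells in meiosis): 3 restricted and 7 control libraries were marked Yes, and 7 restricted and 3 control libraries were marked No. Strain, age, duration of the diet and whether each library came from its own animal are not stated by the labels, so p-values measure the spread between these libraries, which may be technical in part.

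Complement is a cascade of plasma proteins that marks cells and debris for removal. In the classical pathway the C1 complex, made of C1q and the proteases C1r and C1s, cleaves C4 and C2 to form a convertase of C3. In the alternative pathway factor B, the product of Cfb, pairs with activated C3 and is cut by factor D, the protease also called adipsin that adipocytes secrete in quantity. Cleaved C3 coats targets, and further cleavage of C5 starts the membrane attack complex, a pore in which C6, C7, C8 and C9 join in turn. Serping1 encodes the C1 inhibitor, which blocks C1r and C1s. Most circulating components are made in the liver, and stromal cells and macrophages of other tissues make several of them locally.

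The genes lie on 4 chromosomes, with positions given as in the deposited table (build GRCm38, 1-based, whole gene span of exons and introns, all annotated as protein coding). C6 spans 4727175 to 4814967 on the plus strand of chromosome 15 and C7 spans 4988762 to 5063740 on the minus strand, 173.8 kb apart with 4 genes between them, of which 0 passed the filter. C4b (34728380 to 34743882), Cfb (34856374 to 34862518) and C2 (34862604 to 34898265) lie on the minus strand of chromosome 17, the last pair 85 bases apart, and C3 lies further along the same strand (57203970 to 57228136). C1ra (124512405 to 124523443, plus strand) and C1s1 (124530345 to 124542359, minus strand) are neighbours on chromosome 6. Serping1 lies on the minus strand of chromosome 2 (84765387 to 84775404).

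The stretches upstream of C7, C6 and C3 are shown because C7 and C6 had the largest diet differences among the members and C3 is the protein on which the pathways meet. They come from RefSeq (build GRCm38.p6), which held a start-site window for 5 of the 9 members, and are cut to the bases before both the RefSeq start and the deposited gene span; capitals mark matches to the motifs named after them.
C7 (chr15:5063774-5064023, minus strand): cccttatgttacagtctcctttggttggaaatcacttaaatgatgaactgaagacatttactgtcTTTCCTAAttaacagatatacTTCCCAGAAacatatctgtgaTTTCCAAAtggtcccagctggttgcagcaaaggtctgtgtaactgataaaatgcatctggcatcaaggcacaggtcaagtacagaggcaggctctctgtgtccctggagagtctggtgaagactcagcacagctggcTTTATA
C6 (chr15:4726960-4727174, plus strand): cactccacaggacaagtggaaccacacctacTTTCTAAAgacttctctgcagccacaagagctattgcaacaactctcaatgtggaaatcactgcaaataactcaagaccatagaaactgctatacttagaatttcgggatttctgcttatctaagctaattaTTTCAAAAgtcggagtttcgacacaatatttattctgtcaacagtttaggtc
C3 (chr17:57228137-57228386, minus strand): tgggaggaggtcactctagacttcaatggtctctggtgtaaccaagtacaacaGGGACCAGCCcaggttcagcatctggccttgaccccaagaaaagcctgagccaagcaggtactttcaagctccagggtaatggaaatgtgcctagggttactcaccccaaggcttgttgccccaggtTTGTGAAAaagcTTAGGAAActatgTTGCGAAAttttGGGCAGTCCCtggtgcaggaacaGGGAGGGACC

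The motifs searched on both strands were TTNNGNAA (C/EBP), TTCNNNGAA (STAT), TATAAA, a loose NF-kappaB form of GGGA and CC around 4 free bases, a strict NF-kappaB form and an interferon response element. C7 held 2 C/EBP letter matches, 1 STAT match 164 to 156 bases before the start, which reads on both strands, and a TATAAA on the reverse strand. C6 held 2 C/EBP matches. C3 held C/EBP matches at 3 places, 1 of which reads on both strands, and loose NF-kappaB matches at 3 places; none of these overlapped another motif. Of 32851 upstream windows of 250 bases in the same table, 36.85% held the C/EBP letters, 7.02% the STAT letters, 17.63% the loose NF-kappaB form and 12.37% TATAAA. A match to letters is a description of the window and was not tested as a binding site.

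Reads of 5 members can be shared with near copies. No 52-base word of the annotated C7, C6, C3 or Serping1 transcripts occurred in transcripts of another gene. The share of words found elsewhere was 50.03% for C1ra, mostly in C1rb (47.17%), 34.11% for C1s1, mostly in C1s2 (20.95%), and 33.35% for C4b, all in C4a. For C2 and Cfb it was 41.36% and 72.75%, mostly in Gm20547, a transcript that overlaps both. The copies held few counts over all 20 libraries, namely 16 for C1rb, 231 for C1s2, 701 for C4a and 6 for Gm20547, against 48603 for C1ra, 133913 for C1s1 and 576672 for C4b. How reads common to both copies were assigned is not stated, so these 5 members are uncertain to that extent. Zbtb12 overlaps C2 on the opposite strand with 7.672% as many counts, and the strand setting of the counting is not stated.

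Libraries held 18291602 to 44061508 counts in the restricted and 14306528 to 38789768 counts in the control group. Libraries of the same diet differed by more than counting noise in each pair (lowest chi-square over its degrees of freedom 9.93). Transcripts of skeletal muscle stood apart in 6 libraries, Restricted 1 and Control 1 to 5, and results are given with these libraries and in the 14 others. The adipocyte markers Adipoq and Plin1 averaged 4433 and 2883 CPM in restricted and 3728 and 2924 CPM in control libraries. CPM values are counts scaled to the tested genes of a library after TMM scaling, and each n is 10.

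C7, which joins C6 on the growing attack complex and anchors it in the membrane, had 36.0 CPM in the lowest restricted library, a median of 99.6 and 136 in the highest, against 145, 319 and 487 CPM in control libraries. All 10 restricted libraries were below all 10 control libraries. Of all tested genes, 0.588% were separated in this direction. C7 averaged 95.6 ± 34.5 CPM in restricted and 319 ± 99.8 CPM in control libraries (SD, n = 10 each), a log2 fold change of −1.58 ± 0.226 (SE), or 66.5% lower. In bulk tissue, fewer cells of a type and less RNA per cell cannot be told apart. The lowest restricted values were those of Restricted 6 (36.0 CPM), Restricted 9 (46.0 CPM) and Restricted 7 (72.3 CPM). The lowest control library, Control 3 (145 CPM), stood next to the highest restricted ones, Restricted 5 and Restricted 2, both at 136 CPM.

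C6, the component that binds activated C5 before C7, had 54.9, 73.9 and 154 CPM as the lowest, median and highest restricted values and 94.8, 149 and 200 CPM in control libraries. In 8 of 10 restricted libraries C6 was below every control library; Restricted 5 (154 CPM) and Restricted 8 (109 CPM) lay within the control range. C6 averaged 81.5 ± 31.8 CPM in restricted and 142 ± 36.6 CPM in control libraries, a log2 fold change of −0.94 ± 0.198 (SE). Among the 9 members C6 came next to C7 in the size of its difference.

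**Figure D1:**
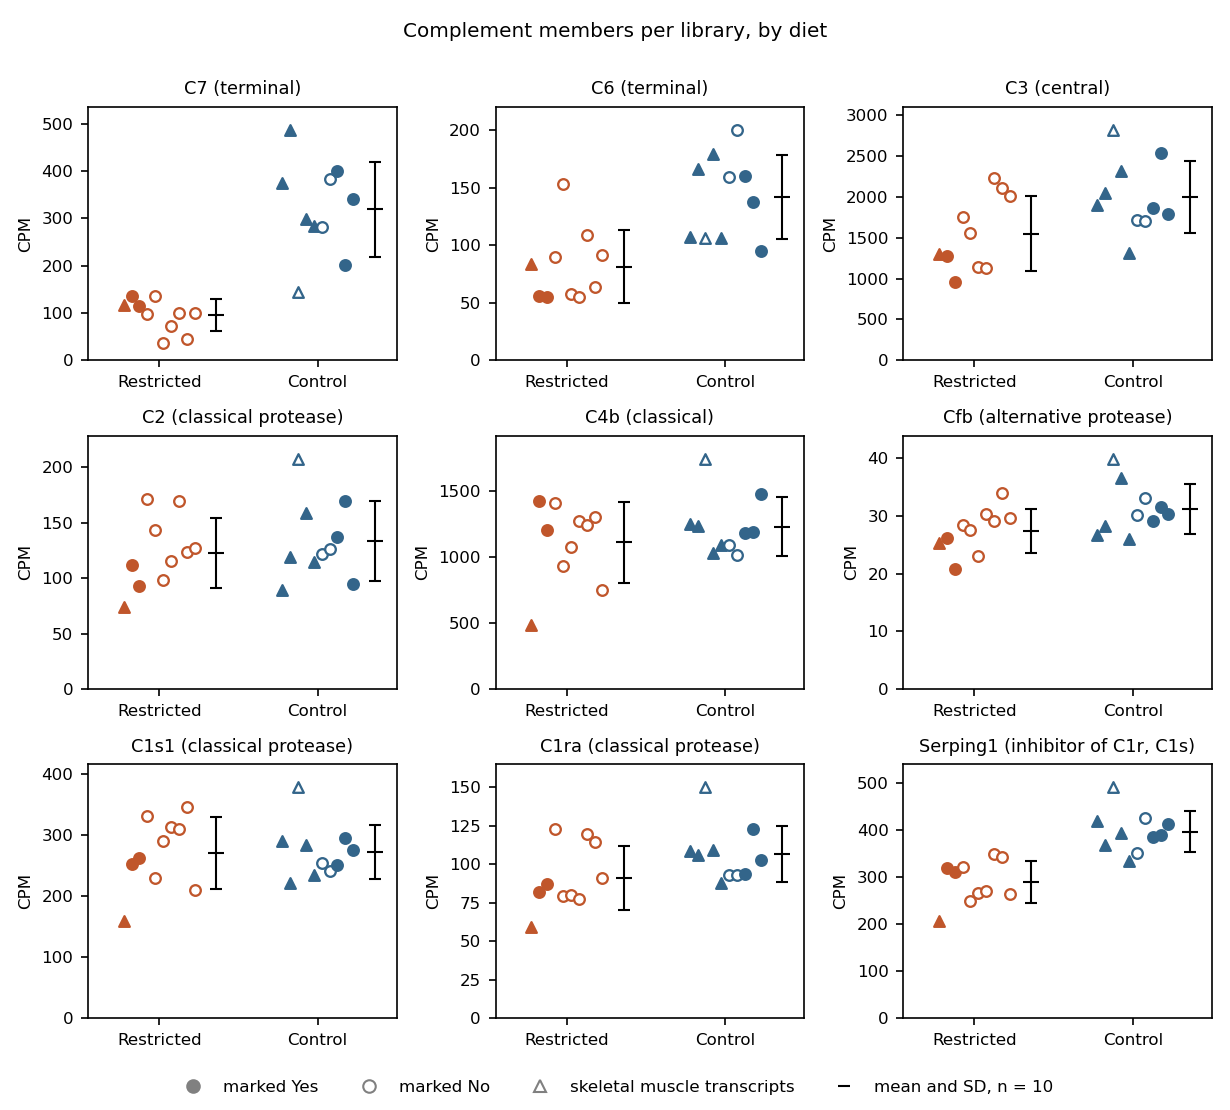
Each panel plots one member in CPM (linear axis from 0) for the 10 restricted and 10 control libraries, with the mean and SD beside each group; filled symbols are libraries marked Yes for spermatocytes and triangles are libraries with skeletal muscle transcripts. C7 shows 36.0 to 136 CPM in restricted libraries, all below the 145 to 487 CPM of control libraries, while the ranges of the other 8 members overlap.

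C3, the protein whose cleavage all pathways share, had 956, 1427 and 2235 CPM in restricted libraries and 1311, 1881 and 2818 CPM in control libraries. The ranges overlapped, and 5 of 10 restricted libraries lay below the lowest control library, Control 5. The log2 fold change of C3 was −0.51 ± 0.166 (SE). C3 passed the threshold in the 20 libraries and in 6 of the 20 sets that leave out 1 library, at −0.60 to −0.54; the sets without Control 1 to 4 or 8 to 10, or without Restricted 1 to 7, gave no call, at −0.52 to −0.42.

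The transcripts of the proteins that build the convertases differed less. C4b, the gene of C4, which is deposited on the target once cleaved, had 482, 1225 and 1425 CPM in restricted libraries. In control libraries it had 1015, 1186 and 1745 CPM, and its log2 fold change of −0.19 ± 0.166 (SE) was not called. The lowest C4b values were those of Restricted 1 and Restricted 10, at 482 and 753 CPM. C2, the gene of the protease that joins cleaved C4, averaged 123 ± 31.7 CPM in restricted and 134 ± 36.1 CPM in control libraries. Its log2 fold change of −0.30 ± 0.150 (SE) was also not called. Cfb, its counterpart in the alternative pathway, had 20.7, 27.9 and 34.0 CPM in restricted and 25.9, 30.2 and 39.9 CPM in control libraries, and its log2 fold change of −0.28 ± 0.0804 (SE) was called. Cfb had the smallest spread of the 9 in restricted libraries, with an SD of 13.9% of its mean. Without Control 3 or without Restricted 3, Cfb was at −0.23 and not called; neither Cfb nor C3 was called without the label term or without the filter on low counts. C3 was also not called with a skeletal muscle index as a term (−0.48) or with replicate numbers 1 to 5 against 6 to 10 as a term (−0.51).

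Among the genes of the C1 proteases and their inhibitor, the diet differences varied in size. C1s1 averaged 270 ± 59.0 CPM in restricted and 272 ± 44.6 CPM in control libraries, a log2 fold change of −0.12 ± 0.121 (SE), the smallest of the 9. C1ra had 59.2, 84.4 and 123 CPM in restricted and 87.5, 104 and 150 CPM in control libraries, and its −0.33 ± 0.124 (SE) was not called, though 6 restricted libraries lay below all control libraries. Serping1 had 206, 290 and 349 CPM in restricted libraries and 333, 391 and 491 CPM in control libraries. In 8 of 10 restricted libraries Serping1 was below all control libraries; Restricted 8 and Restricted 9 (349 and 342 CPM) overlapped Control 5 (333 CPM). The log2 fold change of Serping1 was −0.49 ± 0.0916 (SE), or 29.0% lower, and it was called with each single library left out.

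All 9 members had a log2 fold change below 0, from −1.58 for C7 to −0.12 for C1s1, though C4b and C1s1 turned above 0 in the 14 libraries without muscle. Their median was −0.33, against a median of 0.01 and 48.1% below 0 over all tested genes. Called lower were 5 of the 9 (C7, C6, C3, Cfb and Serping1) and called higher were 0, where 7.29% of all tested genes were called lower and 6.31% higher; the members were chosen with this contrast known, so nothing is read from that share. The log2 ratio of C7 to C6 had a median of 0.11 in restricted and 1.13 in control libraries, and 7 restricted libraries were below all control ones. For the ratio of C7 to Serping1 the medians were −1.57 in restricted and −0.25 in control libraries, with 4 restricted libraries below all control ones. Against C1s1 they were −1.40 in restricted and 0.29 in control libraries. In each of these ratios the ranges of the diets overlapped.

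**Figure D2:**
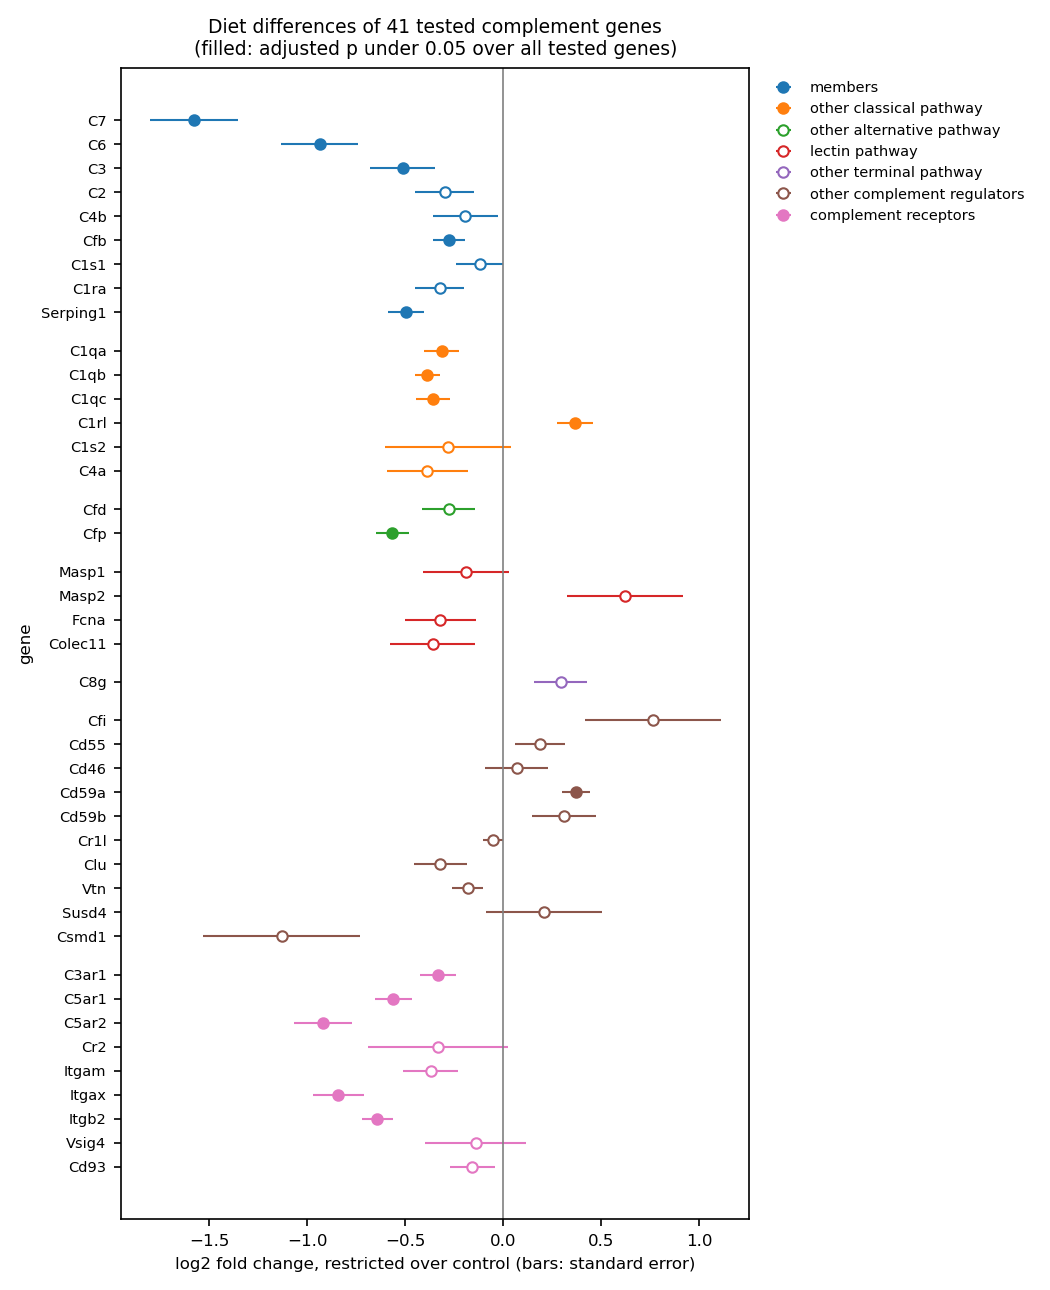
Points are log2 fold changes of restricted over control with standard errors for tested complement genes, grouped by role and coloured by list; filled points had an adjusted p under 0.05 over all tested genes. C7 at −1.58 and C6 at −0.94 lie furthest left among the members, and C1rl and Cd59a are the called genes to the right of 0.

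Levels between genes were compared per length, as CPM per kilobase of the deposited gene length. C3 was highest in both diets, at 301 ± 88.9 in restricted and 388 ± 86.3 in control libraries, followed by C4b at 195 ± 53.4 in restricted and 216 ± 39.5 in control libraries. Serping1 stood at 124 ± 19.6 in restricted and 170 ± 19.0 in control libraries. In control libraries C7 came next at 119 ± 37.3, ahead of C1s1 at 86.9 ± 14.2, with overlapping ranges. In restricted libraries the order of these was turned, with C1s1 at 86.2 ± 18.8 and C7 at 35.7 ± 12.9. C6 stood at 22.9 ± 8.93 in restricted and 39.9 ± 10.3 in control libraries, with a range that overlapped those of C1ra and C2 in both diets. Cfb was lowest, at 9.70 ± 1.35 in restricted and 11.02 ± 1.55 in control libraries, below the range of C2.

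The diet difference was next read within each contamination label. In libraries marked Yes, C7 had 116 to 136 CPM in 3 restricted and 201 to 487 CPM in 7 control libraries. In libraries marked No, it had 36.0 to 136 CPM in 7 restricted and 145 to 383 CPM in 3 control libraries. The ranges of C7 and of Serping1 were apart within both labels. C6, C3 and C1ra were apart in libraries marked Yes and overlapped in those marked No. Ranges of 3 against 7 libraries part more easily than those of 10 against 10. The share of all tested genes apart within a label was not determined, so nothing is read from these separations. C3 was at −0.74 ± 0.182 (SE) in libraries marked Yes and −0.28 ± 0.228 (SE) in those marked No. Fitted in 10 libraries each, C7 was called in both sets (−1.47 and −1.69) and C6 in those marked Yes alone (−1.06, and −0.81 in those marked No).

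The product of diet and label, which asks whether the diet difference depends on the label, was called for 0 of the 9 members in edgeR's quasi-likelihood test and in DESeq2, with 0 at an unadjusted p under 0.05 in either. Over all tested genes edgeR called 0 (0%) and DESeq2 5, and 871 had an unadjusted p under 0.05 in edgeR. The largest such term of a member was that of C3, −0.46 ± 0.316 (SE, adjusted p = 0.859). The label itself was not used to choose the members. Of all tested genes, 5.3% differed with the label at an adjusted p under 0.05, 5.04% being higher in libraries marked Yes. Of the members edgeR and DESeq2 called 0, with 3 and 4 at an unadjusted p under 0.05. Such a p was held by 2158 of all 15986 tested genes in edgeR. In DESeq2, run without the filter on low counts, 3162 genes had one. In libraries marked Yes relative to No, C7 was at 0.44 ± 0.223 (SE, adjusted p = 0.404) and C2 at −0.40 ± 0.150 (SE, adjusted p = 0.178) in edgeR's test. The other members were between −0.32 and −0.11, so C7 was the member whose value lay above 0.

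Leaving out the 6 libraries with muscle transcripts kept 3 of the 5 calls. C7 was at −1.70 ± 0.267 (SE), C6 at −1.11 ± 0.225 (SE) and Serping1 at −0.37 ± 0.0915 (SE). C3 was at −0.39 ± 0.217 (SE) and Cfb at −0.23 ± 0.0921 (SE), not called. C4b and C1s1 turned to 0.08 and 0.09, each with an SE larger than its value. The RNA integrity number was 6.5 to 7.9 in 8 restricted and 7.1 to 7.9 in 9 control libraries that had one. With that number in the model, C7 was at −1.39 ± 0.319 (SE) and alone was called. C6 was at −0.82 ± 0.263 (SE), and at −0.83 ± 0.224 (SE) and called in the same 17 libraries without the term; Serping1 was at −0.45 ± 0.126 (SE) with the term and −0.46 ± 0.102 (SE) without it. The part of RNA quality in these differences was not tested beyond that.

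**Figure D3:**
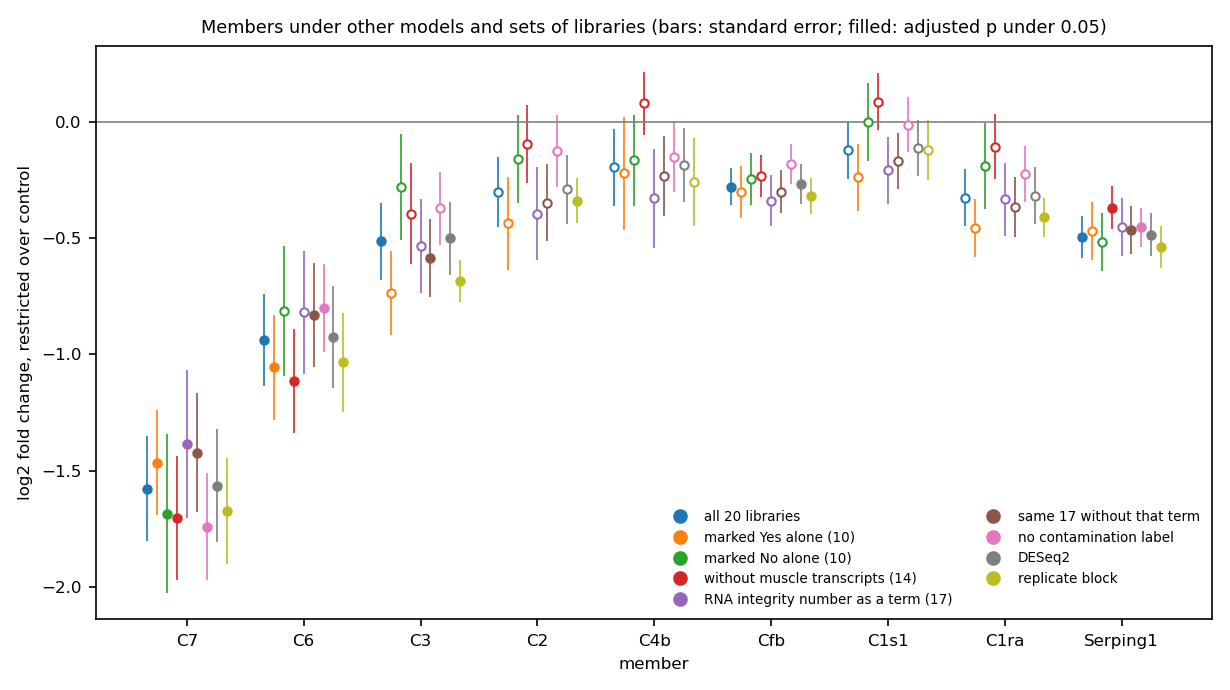
Log2 fold changes of restricted over control, with standard errors, are plotted for each member under 9 models or sets of libraries, filled where the adjusted p was under 0.05. C7 is filled in each of those shown, between −1.74 and −1.39, while C4b (−0.33 to 0.08) and C1s1 (−0.24 to 0.09) are filled in none.

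Variation among libraries of the same diet and label, which the choice of members did not use, was compared next. Log2 CPM values were centred on the mean of each of the 4 combinations of diet and label, and C7 was correlated with each of the 8 other members over 20 libraries by two-sided permutation tests within the combinations, adjusted over 8 relations. C6 had the highest value, with r = 0.67 (permutation p = 0.00741, adjusted p = 0.0593) and rho = 0.69 (permutation p = 0.00542, adjusted p = 0.0434). Without Control 3 and Restricted 6, the libraries farthest from the median of C7, r was 0.57, and in the 14 libraries lacking muscle transcripts it was 0.72 (permutation p = 0.0278, adjusted p = 0.222). By rho the adjusted permutation p was 0.0544 in those 14 libraries (rho = 0.80) and 0.0617 over 20 libraries with RLE scaling factors (rho = 0.66). The relation of C7 to C6 thus missed the threshold by r, and passed it by rho in the 20 libraries with TMM factors but in neither alternative. C1s1 had r = −0.51 (permutation p = 0.0368, adjusted p = 0.147) and rho = −0.50 (permutation p = 0.0403, adjusted p = 0.161). With C3, C2, C4b, Cfb, C1ra and Serping1, r lay between −0.23 and −0.02 (adjusted permutation p at least 0.791).

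The other members varied together in a different grouping. Among the 28 pairs without C7, a comparison added after the relations of C7 had been seen, 12 had an adjusted permutation p under 0.05 for r, 10 of them positive. The highest were C4b with C1s1 (r = 0.86, rho = 0.86, permutation p = 0.00086, adjusted p = 0.00803), C1ra with Serping1 (r = 0.84, rho = 0.87, permutation p = 0.00045, adjusted p = 0.0063) and C1s1 with Serping1 (r = 0.82, rho = 0.82, permutation p = 0.00041, adjusted p = 0.0063). Without the 2 libraries farthest from the median, r was 0.85, 0.84 and 0.77 for these pairs. C3 went with Cfb (r = 0.71, rho = 0.70, permutation p = 0.0016, adjusted p = 0.00902), and with r = 0.82 without its 2 farthest libraries. The negative pairs were C6 with C4b (r = −0.54, permutation p = 0.0145, adjusted p = 0.037, rho = −0.58, adjusted p = 0.0352) and C6 with C1s1 (r = −0.58, permutation p = 0.0165, adjusted p = 0.0385, rho = −0.55, adjusted p = 0.06). Of the 28 pairs, 0 passed in the 14 libraries that lacked muscle transcripts, while r was 0.87 for C4b with C1s1, 0.78 for C1ra with Serping1, 0.64 for C1s1 with Serping1 and 0.60 for C3 with Cfb.

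**Figure D4:**
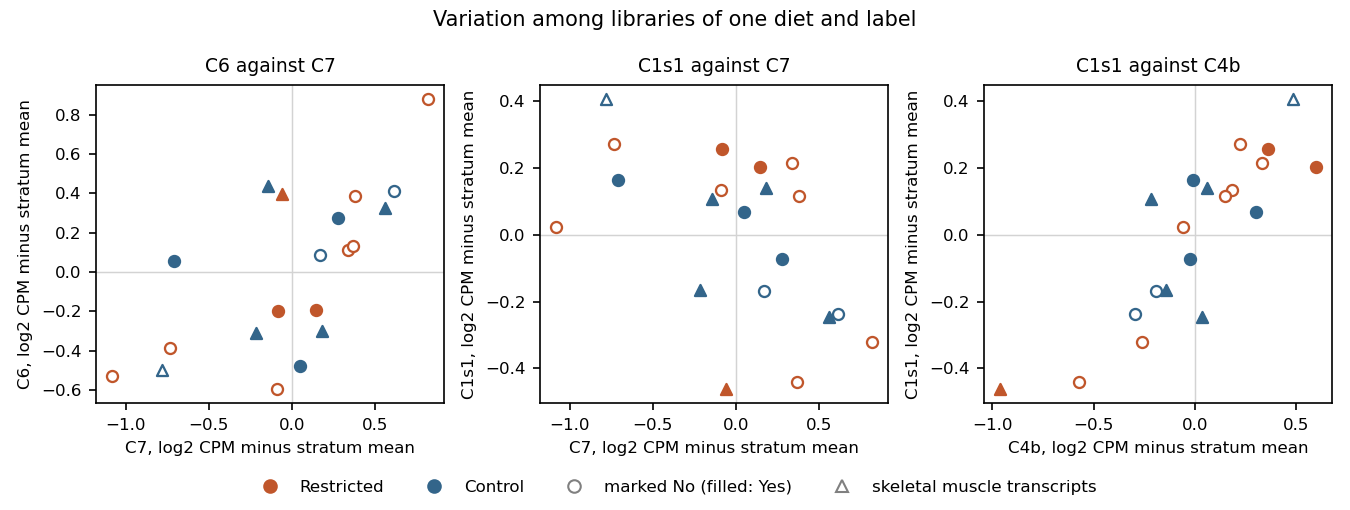
Each point is a library, with log2 CPM minus the mean of its diet and label on both axes; colours give the diet, fill the label and triangles the libraries with skeletal muscle transcripts. C6 rises with C7 (r = 0.67), C1s1 falls with C7 (r = −0.51) and C1s1 rises with C4b (r = 0.86).

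By the same measure, genes with a mean of at least 5 CPM were ranked by their likeness to C7 over the 20 libraries, as a description. Of 10710 genes, the closest were Hpca (r = 0.85), the collagen VI chain gene Col6a5 (0.84), Rab15 (0.82), the collagen VI chain gene Col6a6 (0.80), Svep1 (0.79), Plcl1 (0.78), Clic6 (0.78) and Sfrp1 (0.77). C6 ranked 29, while C3 ranked 5610 and C1s1 10438. Col6a5 averaged 64.3 ± 22.0 CPM in restricted and 246 ± 92.9 CPM in control libraries, with a log2 fold change of −1.86 ± 0.236 (SE). Hpca (−2.16 ± 0.381 SE), Rab15 (−1.54 ± 0.243 SE), Col6a6 (−0.93 ± 0.113 SE) and Sfrp1 (−0.65 ± 0.177 SE) were also called lower. Clic6 was at −0.71 ± 0.267 (SE) and Svep1 at −0.20 ± 0.101 (SE), neither called. Plcl1, alone of these genes above 0, averaged 16.6 ± 12.1 CPM in restricted and 10.1 ± 2.48 CPM in control libraries (0.56 ± 0.345 SE, not called). Likeness within a diet thus did not come with a diet difference of the same size for each of them.

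Of the 46 other complement genes listed, 33 passed the filter. Of these, 10 fell and 2 rose with the diet (called lower or higher), at a median log2 fold change of −0.32. Over all tested genes, 7.29% were called lower and 6.31% higher. These lists and the marker lists were also drawn up with earlier results of these data known. The diet p-values of their genes are therefore a description and no independent support. The 13 that did not pass include most of the remaining attack complex: Hc, which encodes C5, had 32 counts over all 20 libraries, C8a 1, C8b 4 and C9 61. C8g, the tested gene of that group, averaged 6.44 ± 1.31 CPM in restricted and 5.33 ± 0.915 CPM in control libraries (log2 fold change 0.29 ± 0.134 SE, adjusted p = 0.155 in edgeR's test). The pore components measured at more than 10 CPM in this fat pad were therefore C6 and C7. Among 10 liver genes, Alb averaged 28.4 ± 4.38 CPM in restricted and 16.2 ± 4.70 CPM in control libraries and rose (log2 fold change 0.78 ± 0.165 SE, adjusted p = 0.00341 in edgeR's test). Ttr, Fgb and Cyp3a11 were at 0 in 10 or more libraries. The summed liver list was 24.3 to 34.5 CPM in restricted and 8.45 to 30.5 CPM in control libraries. Most of that sum was Alb, so it says little of the other liver genes. The next highest, Serpina1c, averaged 0.99 CPM in restricted and 0.79 CPM in control libraries.

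The recognition subunits of C1 fell together. C1qb averaged 146 ± 15.2 CPM in restricted and 184 ± 17.4 CPM in control libraries (log2 fold change −0.39 ± 0.0652 SE, adjusted p = 0.000542 in edgeR's test), C1qa was at −0.32 (adjusted p = 0.0203) and C1qc at −0.36 (adjusted p = 0.0088). With muscle-bearing libraries left out C1qb kept its call and C1qa and C1qc, at −0.22 and −0.24, did not; C1qa was also not called without Control 7 or without Restricted 1. C1rl, which encodes a protease related to C1r, rose to 24.2 ± 4.01 CPM in restricted libraries, against 19.0 ± 1.73 CPM in control libraries (0.36 ± 0.0920 SE, adjusted p = 0.0114); in the 14 libraries it was at 0.27 and not called, nor was it without Restricted 1. In the alternative pathway, Cfp, which encodes the stabilising factor properdin, averaged 69.3 ± 10.5 CPM in restricted and 95.7 ± 14.2 CPM in control libraries (−0.57 ± 0.0834 SE, adjusted p = 0.00017). Cfd, adipsin, was the most abundant complement gene, at 12679 ± 2741 CPM in restricted and 14925 ± 2177 CPM in control libraries, and was not called (−0.28 ± 0.136 SE, adjusted p = 0.183). Of 8 genes of the lectin pathway 4 were tested and 0 called in edgeR's test. An unadjusted p under 0.05 was found for 1 of them (Masp2) and for 4517 of all 15986 tested genes.

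Among the regulators, Cd59a, which encodes the membrane protein that blocks assembly of the attack complex, rose to 114 ± 8.88 CPM in restricted libraries, against 85.5 ± 10.4 CPM in control libraries (0.37 ± 0.0712 SE, adjusted p = 0.0017 in edgeR's test). All 10 restricted libraries were above all control libraries for Cd59a, a separation that 0.363% of tested genes had. Clusterin (Clu) was at −0.32 and not called. Csmd1 was at −1.13 ± 0.403 (SE, adjusted p = 0.0647 in edgeR's test) and not called in the 20 libraries. Its mean was 0.35 CPM in restricted and 0.76 CPM in control libraries, where counting error limits the value. Cfi and Susd4 differed with the contamination label, higher in libraries marked Yes by log2 values of 3.80 ± 0.356 (SE, adjusted p = 5.08e-08) and 3.41 ± 0.305 (SE, adjusted p = 2.59e-08).

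All 9 receptors tested had log2 fold changes below 0, and 5 fell, where 48.1% of all tested genes were below 0 and 7.29% were called lower. C5ar2, a receptor for the C5 fragment C5a, averaged 1.11 ± 0.170 CPM in restricted and 2.04 ± 0.373 CPM in control libraries (−0.92 ± 0.148 SE, adjusted p = 0.000397 in edgeR's test). Its ranges did not overlap, a separation that 0.588% of tested genes had in this direction. C5ar1 fell by 0.56 (adjusted p = 0.000468) and C3ar1, the receptor of C3a, by 0.33 (adjusted p = 0.0207, and not called in the 14 libraries or without Control 7). Itgax and Itgb2, integrin subunits that pair to bind cleaved C3, were at −0.84 ± 0.131 (SE, adjusted p = 0.000302) and −0.64 ± 0.0806 (SE, adjusted p = 5.55e-05). The ranges of Itgax were also apart, at 5.13 to 9.22 CPM in restricted and 9.58 to 21.2 CPM in control libraries. Without the libraries with muscle transcripts, 8 of the 12 called genes were called again. With the RNA integrity number as a term 5 were: Cfp, C5ar1, C5ar2, Itgax and Itgb2.

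**Figure D5:**
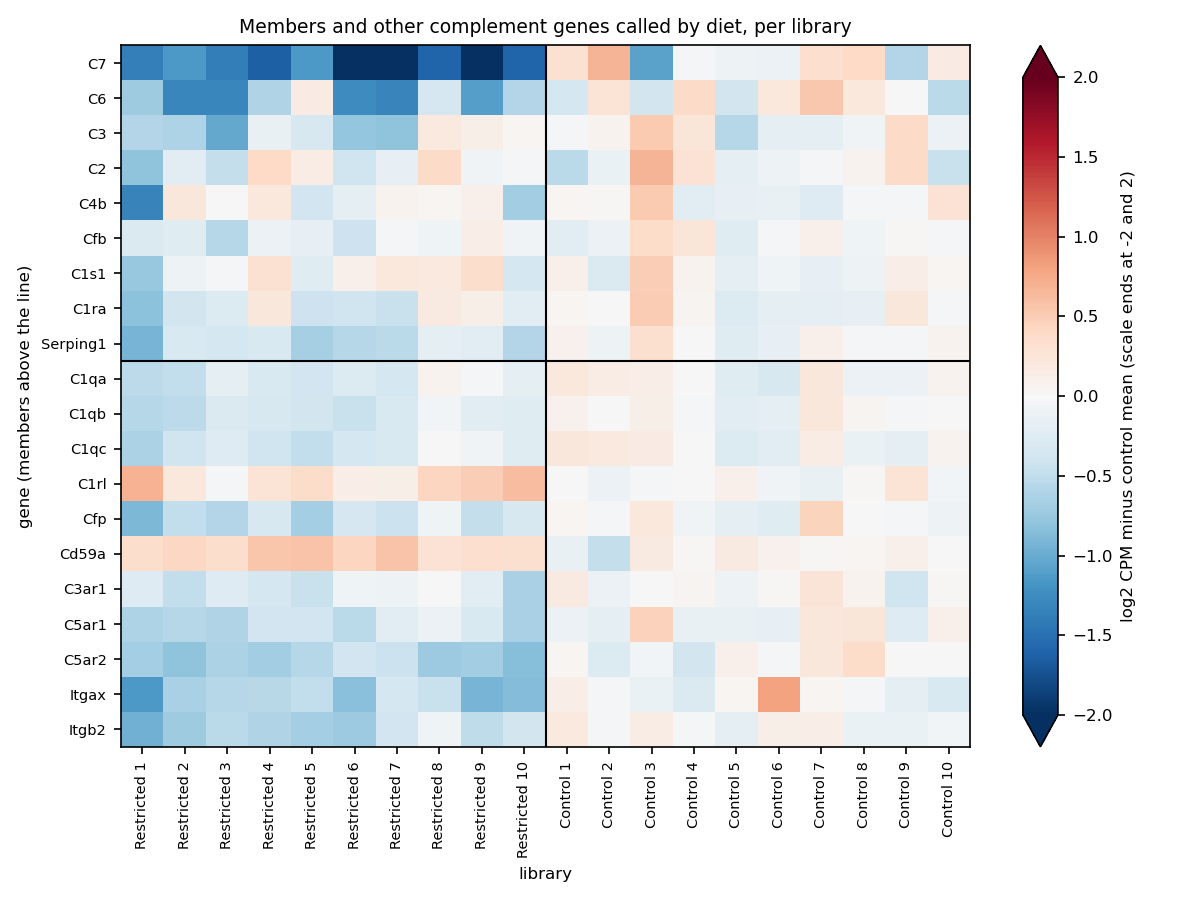
Rows are the 9 members (above the line) and other complement genes called by diet, columns the 10 restricted and 10 control libraries, and colour the log2 CPM minus the control mean, from −2 to 2. Among the members, C7 and Serping1 lie below their control means in all 10 restricted libraries. C1rl and Cd59a are the rows higher in restricted libraries.

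Marker genes of cells that could carry these transcripts are given beside them. Fell and rose stand for called lower and called higher, which held for 7.29% and 6.31% of all tested genes. Of 14 macrophage genes, 12 fell and 0 rose (median −0.53), and their summed level was 858 to 1369 CPM in restricted and 1234 to 1635 CPM in control libraries. Of 20 genes of progenitors and fibroblasts, 6 fell and 0 rose (median −0.25), with sums of 13937 to 25357 CPM in restricted and 20788 to 27787 CPM in control libraries. Most of that sum was Gsn, at 17362 ± 3314 CPM in restricted and 17990 ± 2262 CPM in control libraries and not called (−0.08 ± 0.122 SE), so the sum says little of the other 19 genes. Dcn, 1 of the 6 that fell, averaged 884 ± 104 CPM in restricted and 1297 ± 113 CPM in control libraries. Of the 20 genes, 16 had a log2 fold change below 0. Thy1 (0.23), Cd55 (0.19), Anxa3 (0.08) and Mfap5 (0.04) were above 0 and not called. Of 12 mesothelial genes, 0 were called in edgeR's test. An unadjusted p under 0.05 was found for 1 of them, and for 4517 of all 15986 tested genes. The mesothelial sums were 193 to 755 CPM in restricted and 198 to 750 CPM in control libraries. Of 12 adipocyte genes, 2 rose and 0 fell. Of 10 endothelial genes, 5 fell and 0 rose, and among 9 pericyte and smooth muscle genes 2 fell and 1 rose. The sums of 13 germ cell genes were 3.21 to 126 CPM in restricted and 2.97 to 39.5 CPM in control libraries, and those of 11 epididymis genes were 2.90 to 12.8 CPM in restricted and 3.75 to 333 CPM in control libraries. In the list of progenitors and fibroblasts Bmper had the largest difference, at −1.26 ± 0.121 (SE). The part of these cell types in the differences of the members was not tested.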

How the data were processed

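The table the authors deposited holds whole-number counts for 55401 genes in 20 libraries, with no scaling visible in the values. The labels' protocols describe Trizol and RNeasy extraction, a Tecan mRNA-seq kit and 52-bp paired-end sequencing; they name QUAD, whereas the samples are labelled eWAT, which was followed. STAR, Salmon, bcl2fastq 4.0.3 and GRCm38 appear in the submitters' processing notes without a role. Neither the counting tool nor its strand setting is stated. Symbols were matched by identifier for 55141 genes.

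edgeR 4.0.16 in R 4.3.3 gave the diet tests: TMM factors, filterByExpr (minimum count 10), a quasi-likelihood model of label and diet, and Benjamini-Hochberg adjustment over the 15986 tested genes at 0.05, the threshold behind "called". The SE is the log2 fold change over the root of the F statistic. The biological coefficient of variation was 0.179, so counting error matters mainly near 1 CPM. Correlations used log2(CPM + 0.5) and 100000 permutations, in Python 3.11.15 with numpy 2.4.6. The edgeR steps were tested on simulated data. Alternatives were DESeq2 1.42.0, other scaling factors, filters, terms and sets of libraries, a replicate block, and fits without single libraries. Libraries with muscle transcripts had a mean log2 CPM over 12 muscle genes above 2.5.

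Named were the members; other complement genes called by diet or label, up to 4 per list by smallest diet p, and near copies; and the 8 genes most like C7. Zbtb12, Gm20547, Hc, C8a, C8b, C9 and the marker genes were added after their values were seen. The members and lists were chosen with earlier results of these data known. Of the other complement genes, 1 is included in the counts but is not reported here by name or drawn.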

Additional observations from a re-analysis of the deposited data

Results flagged for a closer look

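In 6 of 60 groups of 10 libraries examined, 1 library stood apart from the rest by Dixon's criterion, which chance gives in about 1 of 20 groups. Among the members this was C1s1 in Control 3, at 377 CPM against 221 to 295 CPM in the other control libraries. Among the other genes it was C8g in Restricted 10 (9.34 CPM against 5.13 to 7.36), Fcna in Restricted 8 (74.9 CPM against 25.6 to 49.2), Masp1 in Restricted 1 (20.98 CPM against 5.32 to 12.3), Colec11 in Control 7 (5.41 CPM against 1.86 to 3.35) and Itgax in Control 6 (21.2 CPM against 9.58 to 13.1). Control 3 also had the highest C3, C2, C4b, Cfb, C1ra and Serping1 of the control libraries and their lowest C7.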

How the results depend on the processing

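Each member's log2 fold change stayed below 0 in all 35 fits, except C4b and C1s1 in the 14 libraries without muscle transcripts, and C7 was called in each fit. The fall of C7 was known beforehand from these libraries, so its calls in refits are a description. The 2173 diet calls over the whole table became 239 when fitted on Yes libraries, 400 on No libraries, 927 without muscle transcripts, 392 with the RNA integrity number (1445 in the same 17 libraries without it) and 1388 under a replicate block; leaving out single libraries gave 1506 to 2274. Of the members, 5 were called in the 20 libraries, 1 with the RNA integrity number or on No libraries, 2 on Yes libraries, and 3 without the label, without a filter on low counts or without muscle transcripts; leaving out single libraries gave 3 (without Control 3 or Restricted 3) to 5. Of the other complement genes, 12 were called, 5 with the integrity number, 3 on No and 5 on Yes libraries, and 10 to 13 without single libraries. The label had 848 calls, 1307 in DESeq2 and 709 to 944 without single libraries, with 0 or 1 member (Cfb, without Control 4 or Restricted 6). The product of diet and label had 0 calls, 5 in DESeq2, 5 without muscle transcripts and 0 or 1 without single libraries. The cause of these shifts was not tested; the smaller sets hold fewer libraries. Same-numbered libraries of the 2 diets showed no strong shared deviation (correlations −0.09 to 0.17, 2 of 10 pairs over 0.1, and 1 of 20 libraries closest to its own number). That check cannot exclude that the numbers pair libraries, as a weak shared deviation could be missed in 10 pairs. Under the block C2 and C1ra were also called, at −0.34 and −0.41, and C3ar1 lost its call (−0.30, adjusted p = 0.0698 in edgeR). Near 1 CPM (C5ar2, Masp2, C4a) counting error limits the values.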
